A study of Mus musculus with 8 samples.

Results

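The Wnt pathway genes described here were 5 loci read in 6 chromatin immunoprecipitation sequencing (ChIP-seq) peak lists, as windows of mouse build mm9. The genes were Ctnnb1, Lef1, Axin2, Sost and Dkk1. A peak belonged to a window when its midpoint lay inside it, and 46 of the 88367 peaks of the 6 lists did. The Ctnnb1 window was chosen by a measured value, a KDM4B peak of KO cells that meets no H3K9me3 peak, and the gene set was named with results of these data known. What the windows hold is therefore given as a description without a test.

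Primary mesenchymal stem cells from mouse bone marrow, stromal progenitors able to become osteoblasts or adipocytes, were compared between 2 genotypes. KO cells came from Prx1Cre; Kdm4bf/f mice and WT cells from Prx1Cre; Kdm4bw/w mice, so both genotypes carried Cre driven by the Prx1 promoter, which is active in limb mesenchyme, and deletion depends on the cells in which that driver was active. All cells were under osteogenic induction, a bone-forming stimulus, for 4 hours. Immunoprecipitations were of KDM4B, of H3K9me3 and of total histone H3, each with 1 KO and 1 WT library, and for KDM4B the genotype is given in the sample titles alone. The labels name 2 KDM4B antibodies without saying which was used for which library. The labels do not state the age of the mice or whether a library pooled several animals. The lists held 35 KDM4B peaks in KO and 32017 in WT, 55306 H3K9me3 peaks in KO and 943 in WT, and 28 H3 peaks in KO and 38 in WT. With 1 library per antibody and genotype there was no replicate check, and no genotype difference could be tested. Depth was known for H3 in WT cells, with 40420466 filtered tags in the immunoprecipitate and 45099322 in the control, and is unknown for the other lists. Peak lists measure no expression, so the labelled cell type could not be checked against marker genes, and a peak does not show whether all cells or a fraction of them carried the signal.

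Canonical Wnt signalling stabilises β-catenin, the product of Ctnnb1, which enters the nucleus and activates target genes together with DNA-binding partners such as LEF1. AXIN2 is a scaffold of the complex that marks β-catenin for destruction, and its gene is itself a Wnt target, which makes it a feedback inhibitor. Sclerostin, encoded by Sost and secreted mainly by osteocytes, and DKK1, a secreted protein, both block the LRP co-receptors of Wnt ligands, and the pathway is known for promoting bone formation. KDM4B is a histone demethylase, and its substrate H3K9me3, a trimethylated lysine of histone H3, marks repressed chromatin.

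Promoter sequence is shown for the 3 loci with the most different peak patterns: Lef1, where both antibodies gave peaks, Axin2, with H3K9me3 peaks alone, and Dkk1, with none. Each is the 250 bases before the transcription start that comes first in the direction of transcription in the RefSeq table of build GRCm38.p6, 5′ to 3′, and all 5 genes matched that table. Capitals mark CTTTGA or CTTTGT, the core letters that TCF and LEF proteins bind, on either strand; the 2 motifs cannot overlap on 1 strand. These GRCm38.p6 positions are not on the scale of the mm9 peak positions, and the starts were not placed within the windows. Lef1 lies on the + strand at chr3:131110047-131110296, Axin2 on the + strand at chr11:108920099-108920348 and Dkk1 on the - strand at chr19:30549497-30549746.
Lef1: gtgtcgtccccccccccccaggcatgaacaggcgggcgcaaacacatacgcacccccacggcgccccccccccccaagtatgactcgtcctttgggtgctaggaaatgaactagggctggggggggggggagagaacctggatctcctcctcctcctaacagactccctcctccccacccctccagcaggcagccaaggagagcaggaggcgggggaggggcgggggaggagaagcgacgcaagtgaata
Axin2: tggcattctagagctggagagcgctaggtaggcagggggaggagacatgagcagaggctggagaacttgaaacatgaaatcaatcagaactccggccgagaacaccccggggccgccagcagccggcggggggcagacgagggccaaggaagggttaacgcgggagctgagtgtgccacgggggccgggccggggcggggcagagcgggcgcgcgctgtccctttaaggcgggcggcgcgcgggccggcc
Dkk1: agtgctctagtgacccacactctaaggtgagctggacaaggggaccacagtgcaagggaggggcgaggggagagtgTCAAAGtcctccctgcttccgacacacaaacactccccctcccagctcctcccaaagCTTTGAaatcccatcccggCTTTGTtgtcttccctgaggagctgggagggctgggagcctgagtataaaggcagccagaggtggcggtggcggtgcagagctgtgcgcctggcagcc

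The Dkk1 sequence held 3 motif matches, beginning 174, 117 and 98 bases before the start, and the first reads TCAAAG, the reverse strand of CTTTGA. The sequences of Ctnnb1, Lef1, Axin2 and Sost held 0. The table lists 2 starts for Ctnnb1 and 4 for Lef1, and their later starts were not searched for this comparison. Of all 32851 promoters of the same length in the table, which belong to 27025 genes and include alternative starts, 27.6% held at least 1. The 5 promoters also differed in CpG dinucleotides, the sites of DNA methylation. Ctnnb1 had 35, Axin2 24, Lef1 11, and Sost and Dkk1 6 each, against a median of 6 over all promoters. GC content was 74.8% for Ctnnb1, 69.2% for Axin2, 66.4% for Lef1, 61.2% for Sost and 60.8% for Dkk1, against a median of 52.4%. A match is a run of letters and does not show binding.

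KDM4B peaks were found at Ctnnb1, Lef1 and Sost in WT cells, and H3K9me3 peaks at Ctnnb1, Lef1, Axin2 and Sost in KO cells. KDM4B gave 1 peak in KO cells and 12 in WT cells over the 5 windows, which together span 270 kb. H3K9me3 gave 33 peaks in KO cells and 0 in WT cells, and H3 gave 0 in both genotypes. Dkk1 was empty in all 6 lists. The H3K9me3 peaks of KO cells and the KDM4B peaks of WT cells covered nearly the same length, 10573 and 10504 bp, which is 3.92% and 3.89% of the windows.

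A count of 0 H3K9me3 peaks in WT cells allows up to 3 over the 5 windows. The 33 H3K9me3 peaks of KO cells were 11 times that limit. This is not a lower bound, since the KO count has an exact Poisson interval of its own, 22.7 to 46.3. That interval treats neighbouring peaks as independent, and merging close peaks left 21. Over the whole genome the KO to WT ratio of peak numbers was 58.6, and at that ratio 33 KO peaks would go with 0.563 WT peaks, so the 0 WT peaks of these windows do not set them apart from the genome. For KDM4B, 1 KO peak stood against 12 WT peaks, but that KO peak chose its window, so the ratio of these numbers is not set against that of the whole lists. Peak numbers also move with depth, control and threshold, whose part in either difference was not tested.

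**Figure D1:**
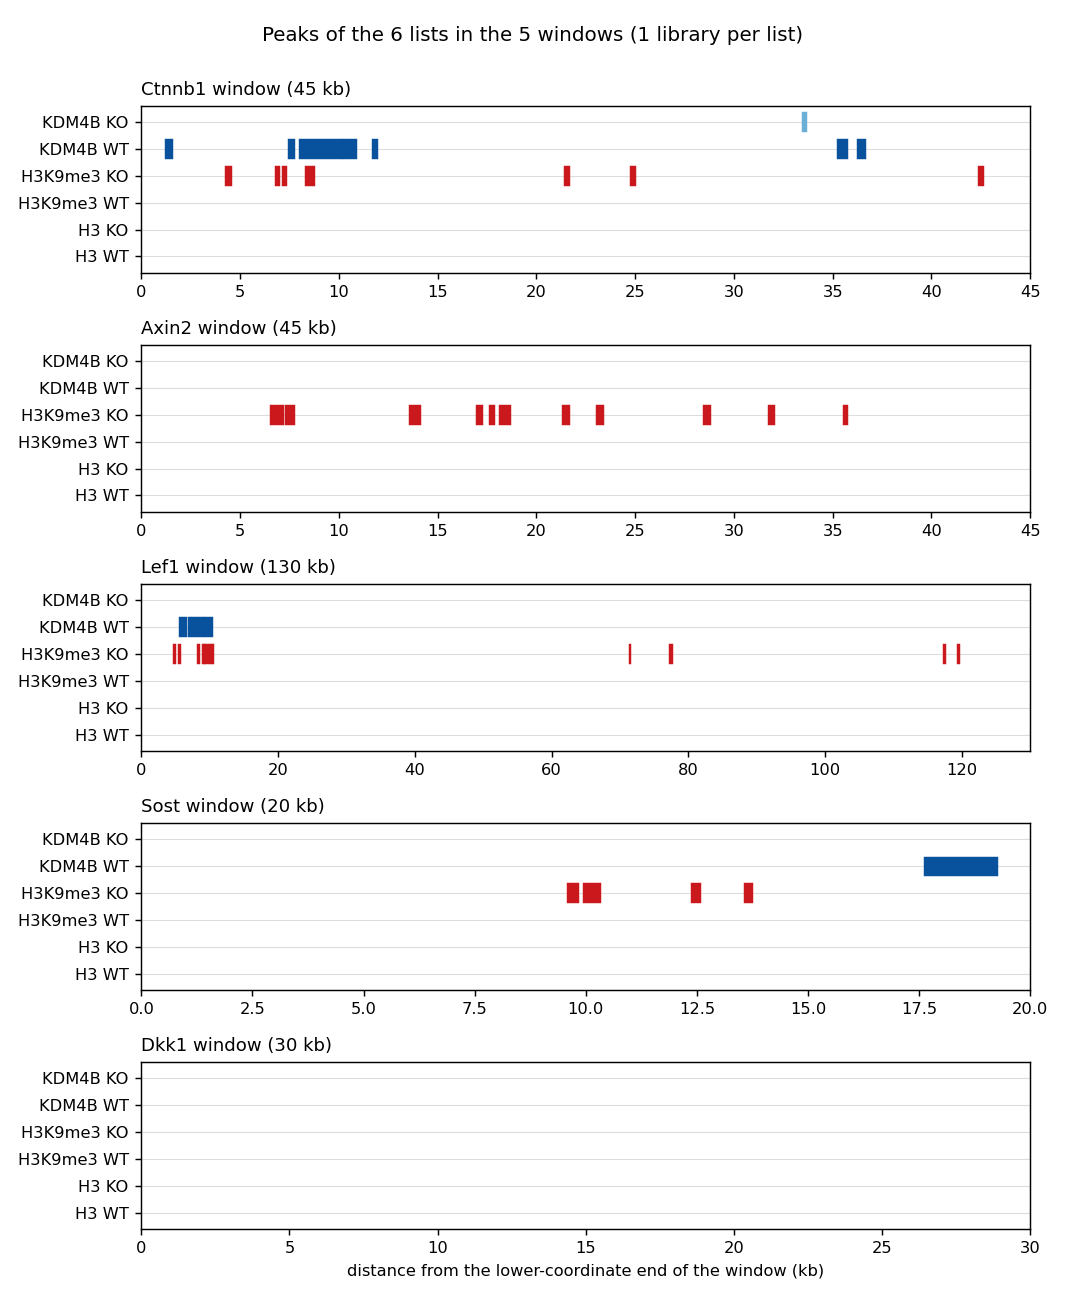
Peaks of the 6 lists in each window, drawn to scale against the distance in kb from the window's lower-coordinate end, with 1 row per list. KDM4B WT and H3K9me3 KO peaks sit side by side at Ctnnb1 and Lef1, Axin2 has 11 H3K9me3 KO peaks and no KDM4B, Sost has both kinds apart from each other, and Dkk1 is empty.

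The windows were read against autosomal stretches of the same length laid end to end along the 19 autosomes. Of 54858 stretches of 45 kb, the length used for Ctnnb1 and Axin2, 30.4% held H3K9me3 in KO and none in WT, as both windows did. The same pattern was met in 46.5% of 18983 stretches of 130 kb, the length of the Lef1 window, in 19.7% of 123443 stretches of 20 kb, the length of Sost, and in 24.7% of 82290 stretches of 30 kb, the length of Dkk1. KDM4B in WT with none in KO was met in 36.7% of stretches at the Lef1 length and 12.4% at the Sost length, and both windows showed it. At 45 kb that share was 21.0% and at 30 kb it was 16.3%, and Axin2, Ctnnb1 and Dkk1 did not show it. Among 45 kb stretches that held a peak of any list, 80.4% had H3K9me3 in KO and none in WT. That share is high by construction, since 55306 of the 88367 peaks that define such stretches are H3K9me3 peaks of KO cells. The shares over all stretches, 19.7 to 46.5%, show that the pattern is not rare in a single stretch.

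**Figure D2:**
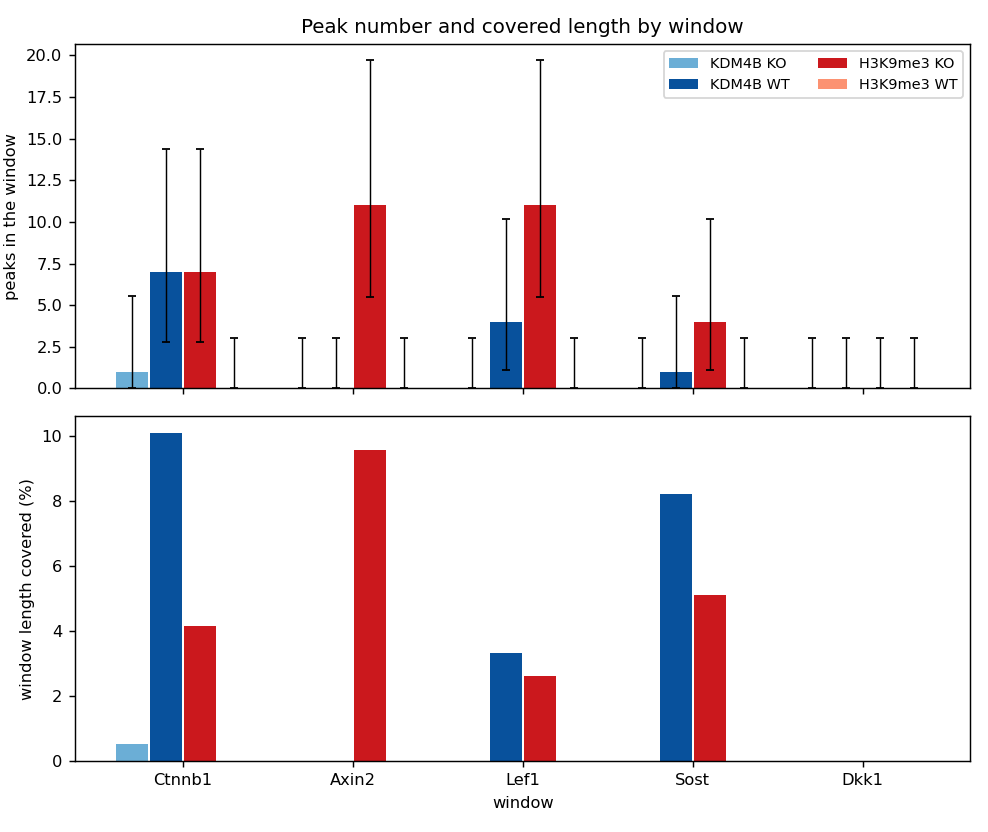
Number of peaks per window with 95% exact Poisson intervals (top; for a count of 0 the bar ends at 3, the number a count of 0 allows) and percent of the window length covered (bottom), for KDM4B and H3K9me3 in KO and WT cells. H3K9me3 KO bars reach 11 at Axin2 and Lef1, 7 at Ctnnb1 and 4 at Sost, and H3K9me3 WT has 0 peaks throughout.

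Ctnnb1, the gene of β-catenin, lies in the window on chromosome 9 from 120835000 to 120880000, between Rpl14 and Ulk4 in the gene order of the RefSeq table. KDM4B gave 1 peak in KO and 7 in WT cells, with 95% exact Poisson intervals of 0.0253 to 5.57 and 2.81 to 14.4 that cover counting error only. They covered 226 bp of the window in KO and 4531 bp in WT, which is 10.1% of its length. H3K9me3 gave 7 peaks in KO, covering 1866 bp, and 0 in WT.

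The WT KDM4B peaks at Ctnnb1 formed 1 dense group, a pair 23.3 kb away and 1 outlying peak. The widest, from 120843004 to 120845139, was 2.14 kb, a width that 4.31% of all KDM4B WT peaks reach. A peak of 637 bp, from 120845216 to 120845852, followed it after 76 bp. The third widest, from 120870214 to 120870705, was 492 bp and belonged to the distant pair. The other 4 were 247 to 418 bp wide. Merging peaks within 1 kb of each other left 3 regions.

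H3K9me3 at Ctnnb1 in KO cells met KDM4B once. The H3K9me3 peak from 120843291 to 120843721, at 431 bp the widest of the window, lay wholly inside the 2.14 kb KDM4B peak. A pair of H3K9me3 peaks of 199 bp each ended 142 and 484 bp short of the next KDM4B peak. The next widest, from 120839245 to 120839563 with 319 bp and from 120859726 to 120859975 with 250 bp, were 2.71 and 10.2 kb from KDM4B. The KDM4B pair at the far end of the window had no H3K9me3 peak closer than 5.71 kb.

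The single KDM4B peak of KO cells, which chose this window by its lack of contact with H3K9me3, lay from 120868443 to 120868668 and was 226 bp wide. It ended 1545 bp before the nearest WT KDM4B peak and overlapped none. The nearest H3K9me3 peak of KO cells was 8.47 kb away and the nearest of WT cells 2913 kb away. The other 34 of the 35 KDM4B peaks of KO cells touched an H3K9me3 peak of KO cells, which is the trait the choice rested on. The same 34 also touched an H3K9me3 peak of WT cells, so H3K9me3 was called at these sites in both genotypes. The KDM4B side of the contact came from KO cells alone. The Ctnnb1 peak was also the 1 peak of the 35 within 10 kb of a KDM4B peak of WT cells. The next closest lay 29.6 kb from one. Its width was below the median of 318 bp, and 5 of the 35, itself included, were no wider. Of the 45 kb stretches, 0.0292% held any KDM4B peak of KO cells, and since such a peak chose the window, nothing is read from that share. With no score in that list and no KO replicate, its strength and its recurrence are unknown.

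Lef1, which encodes a DNA-binding partner of β-catenin, lies in the window on chromosome 3 from 130805000 to 130935000, between Rpl34 and Hadh. KDM4B gave 0 peaks in KO and 4 in WT cells, which covered 4332 bp. H3K9me3 gave 11 peaks in KO, covering 3384 bp, and 0 in WT. All 4 KDM4B peaks sat within 4.82 kb, 84 to 270 bp apart, and 7 of the 11 H3K9me3 peaks sat within 5.9 kb in the same place.

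Of the 4 KDM4B peaks at Lef1, 3 overlapped H3K9me3 peaks of KO cells, a share of 75% with a 95% exact binomial interval from 19.4 to 99.4%. At Ctnnb1 it was 1 of 7, or 14.3% (0.361 to 57.9%), and the intervals of the 2 windows overlap. The peak from 130814122 to 130815326, of 1.21 kb, overlapped 3 of them and shared 901 bp with H3K9me3. The widest, from 130812370 to 130814037, of 1.67 kb, overlapped 2 and shared 444 bp. The lowest-coordinate peak, from 130810508 to 130811491, of 984 bp, overlapped 1 and shared 114 bp. The KDM4B peak without contact, 475 bp wide, was 952 bp from the nearest H3K9me3 peak. Merging KDM4B peaks within 1 kb left 1 region at Lef1 and 3 at Ctnnb1, whereas the 2 intervals treat each peak as independent.

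Seen from the mark, 6 of the 11 H3K9me3 peaks at Lef1 overlapped KDM4B. The widest of the 11, from 130814166 to 130814720, was 555 bp and lay inside the 1.21 kb KDM4B peak. After the cluster no H3K9me3 peak followed for 60.8 kb. The 4 peaks beyond that gap were 60.9 to 109 kb from the nearest KDM4B peak. They included the next widest of the window, from 130882171 to 130882651 with 481 bp and from 130922170 to 130922529 with 360 bp.

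**Figure D3:**
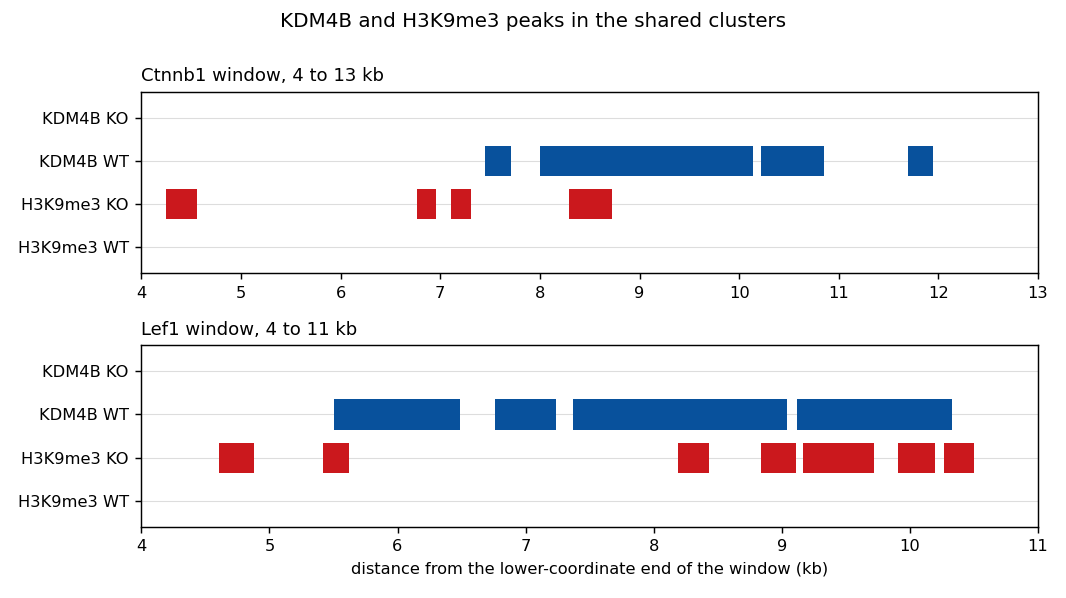
Close view of the stretches in which KDM4B WT and H3K9me3 KO peaks meet, at Ctnnb1 (4 to 13 kb from the window's lower-coordinate end) and Lef1 (4 to 11 kb), with 1 row per list and peaks drawn to scale. At Ctnnb1 1 H3K9me3 peak lies inside the 2.14 kb KDM4B peak, and at Lef1 6 H3K9me3 peaks overlap 3 of the 4 KDM4B peaks.

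Axin2, the feedback inhibitor, lies in the window on chromosome 11 from 108775000 to 108820000, between Cep112 and Rgs9. KDM4B gave 0 peaks in both genotypes. H3K9me3 gave 11 peaks in KO cells, with an interval of 5.49 to 19.7, and 0 in WT cells. They covered 4305 bp, or 9.57% of the window, against 4.15% at Ctnnb1, 2.6% at Lef1 and 5.09% at Sost. None of the 11 was closer than 394 kb to a KDM4B peak of WT cells.

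The Axin2 peaks were spread over 29.2 kb, with a median gap of 2745 bp and no gap above 5.85 kb. The widest, from 108781526 to 108782174 with 649 bp, stood at the lower-coordinate end, and the next peak followed after 88 bp. The next widest lay from 108788552 to 108789126, with 575 bp, and from 108793131 to 108793644, with 514 bp. Of the 11, 10 were at or above the median width of the whole KO list, 256 bp, and widths of 649 bp or more made up 3.45% of that list.

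Sost, the gene of sclerostin, lies in the window on chromosome 11 from 101815000 to 101835000, between Meox1 and Dusp3. KDM4B gave 0 peaks in KO and 1 in WT, from 101832605 to 101834245, with 1.64 kb, a width that 7.74% of the list reaches. H3K9me3 gave 4 peaks in KO and 0 in WT, within 4.17 kb. They lay from 101824582 to 101824820, from 101824938 to 101825318, from 101827365 to 101827563 and from 101828550 to 101828748. The widest was 381 bp and 2 had 199 bp, the smallest width of the list. Inside the window KDM4B and H3K9me3 did not meet, and their closest peaks were 3.86 kb apart.

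Dkk1, which encodes a secreted inhibitor, lies in the window on chromosome 19 from 30605000 to 30635000, between Mbl2 and Prkg1. It held 0 peaks of KDM4B, H3K9me3 and H3 in KO and in WT cells, each a count of 0 that allows up to 3. The nearest H3K9me3 peak of KO cells was 79.5 kb below the window, and the next on the other side was 523 kb above it. KDM4B in WT cells was 423 kb below and 522 kb above. Stretches of 30 kb with neither KDM4B in WT nor H3K9me3 in KO made up 68.9% of all such stretches, so this emptiness is the usual state of a stretch of that length.

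Distances of peaks left out run from the peak's midpoint to the window's edge. At Sost the nearest KDM4B peak left out, from 101814026 to 101814949, lay 0.513 kb below the window, and another lay 4.01 kb above it. Within 10 kb of the Sost window lay 5 more KDM4B peaks of WT cells, and 1 of them, from 101844293 to 101844712, overlapped H3K9me3 of KO cells. H3K9me3 peaks of KO cells were left out 3.2 kb below and 7.31 kb above. At Ctnnb1 the nearest peaks left out were 57.5 kb away for KDM4B in WT and 12.9 kb for H3K9me3 in KO. At Lef1 they were 137 and 50.7 kb away, and at Axin2 385 and 22.2 kb.

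H3K9me3 peaks of KO cells were more numerous in 4 of the 5 windows than in most stretches of the same length, the exception being Dkk1, which, like 75% of 30 kb stretches, held none. The median stretch held 0 at every length, and 51.9 to 80.1% held none. Any window with a peak would therefore exceed most stretches. At Axin2, 1.6% of all 45 kb stretches held 11 or more H3K9me3 peaks of KO cells. At Ctnnb1, 3.98% held 7 or more. For Lef1, 8.24% of 130 kb stretches held 11 or more, and for Sost 3.42% of 20 kb stretches held 4 or more. KDM4B peaks of WT cells were as many as the 7 of Ctnnb1 in 1.72% of stretches, as many as the 4 of Lef1 in 15.2% and as many as the 1 of Sost in 12.4%. The gene content of the stretches was not compared with that of the windows.

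Across the genome, stretches with KDM4B in WT reached these numbers at a higher rate than stretches without it, and the Axin2 window had no KDM4B. Among 45 kb stretches with a KDM4B peak in WT, 5.03% held 11 or more H3K9me3 peaks of KO cells, against 0.683% of those without, a class of 43321 in which 296 reached that number. For the 7 peaks of Ctnnb1 the shares were 11.6% with and 1.95% without KDM4B. For the 11 of Lef1 they were 18.5% and 2.29%, and for the 4 of Sost 12.1% and 2.19%. These are descriptions of 1 library each and say nothing of an effect of KDM4B at any locus.

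**Figure D4:**
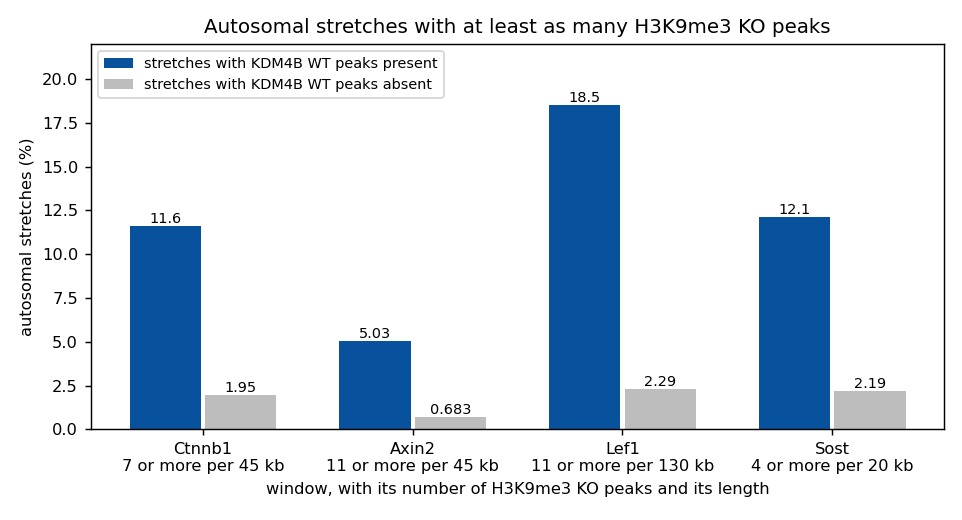
Percent of autosomal stretches of the same length as each window that held at least as many H3K9me3 KO peaks as the window, for stretches with KDM4B WT peaks present (left bars) and absent (right bars). Axin2, which has no KDM4B peak, belongs to the right bar of 0.683%, and Ctnnb1, Lef1 and Sost belong to the left bars of 11.6, 18.5 and 12.1%.

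Over all windows, H3K9me3 of KO cells was met by 4 of the 12 WT KDM4B peaks. That is a share of 33.3%, with a 95% exact binomial interval of 9.92 to 65.1%, against 22.8% of all KDM4B peaks. The count was 1 of 7 at Ctnnb1, 3 of 4 at Lef1 and 0 of 1 at Sost. Conversely, 7 of the 33 H3K9me3 peaks overlapped KDM4B, or 21.2% (8.98 to 38.9%), against 15.7% of all H3K9me3 peaks of KO cells. Both background shares lie inside the intervals, so at this number of peaks a difference from the genome was not detectable. In WT cells 0 of the 12 KDM4B peaks overlapped H3K9me3, which allows a share of up to 25%. This 0 follows from the 0 H3K9me3 peaks of WT cells in the windows and says nothing further about these KDM4B peaks. The same share over all KDM4B peaks of WT cells was not computed. Within 10 kb of a KDM4B peak lay 17 of the 33 H3K9me3 peaks, or 51.5%, against 40.4% of the whole list.

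Peak width set the lists apart within these loci as it did across the genome. The 12 KDM4B peaks of WT cells had a median width of 564.5 bp, against 509 bp in the whole list, and 4 of them reached 1 kb, or 33.3% against 19.9%. The 33 H3K9me3 peaks of KO cells had a median of 277 bp, against 256 bp, and ranged from 199 to 649 bp. None reached 1 kb, as did 0.533% of the whole list, and 6 had the smallest width of 199 bp, or 18.2% against 20.8%.

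**Figure D5:**
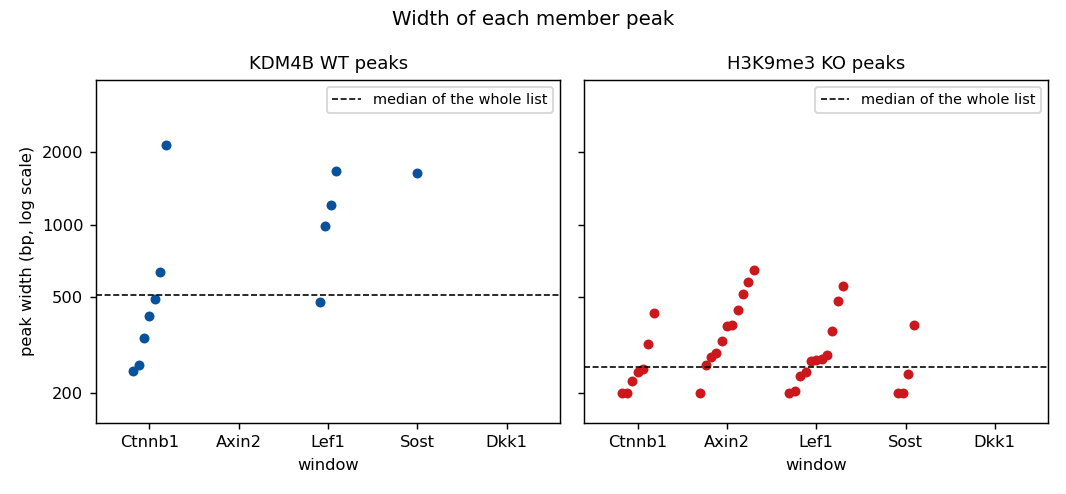
Width of each KDM4B WT peak (left) and H3K9me3 KO peak (right) in the 5 windows, on a log scale in bp, with the dashed line at the median of the whole list. KDM4B peaks of 1 kb or more occur at Ctnnb1, Lef1 and Sost, and 10 of the 11 Axin2 H3K9me3 peaks lie at or above the line.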

How the data were processed

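Bowtie, SAMtools, MACS (KDM4B) and MACS2 (other samples) and the builds mm9 and hg19 are listed in the submitters' processing notes. The H3 WT table was made with MACS2 2.1.4 with a control and a q-value threshold of 0.05, per the file headers; versions and thresholds of the other 5 lists, and whether the yeast chromatin spike-in of the H3K9me3 libraries entered the values, are not given. Those 5 deposited lists hold positions alone. From the H3 WT table the deposited −log10 q-value was used once, as an alternative threshold of 5. The 2 input samples were not analysed here.

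Windows came from a stated rule, and members and lists were chosen with earlier results of these data known. Peaks were assigned by midpoint, positions are counted from 1, and overlap meant at least 1 bp. Distances between peaks run edge to edge, and distances of peaks outside a window run from the peak's midpoint to the window's edge. Stretches ran end to end from the start of each autosome to its last peak. Named peaks were all KDM4B KO, H3K9me3 WT and H3 peaks, all KDM4B WT peaks that overlap H3K9me3 KO, and the 3 widest per list and window; other peaks are mentioned where distances required it. Intervals are exact Poisson or Clopper-Pearson at 95%, cover counting error only, and treat neighbouring peaks as independent. The exceptions are the limit of a count of 0, set at 3, and the 25% limit for 0 of 12, which is 3 of 12. RefSeq tables of build GRCm38.p6 gave gene names, neighbours and promoter sequences, and none of their positions was placed among the peaks, so windows were not checked against mm9 genes, and a further list of Wnt pathway genes was not analysed here. Python 3.11.15, numpy 2.4.6, scipy 1.17.1 and matplotlib 3.10.9 were used, and counting was tested on simulated data.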

Additional observations from a re-analysis of the deposited data

How the results depend on the processing

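No paired analysis was possible because each antibody and genotype has 1 library. For the same reason no replicate could be left out. The 33 H3K9me3 peaks of KO cells became 21 when peaks within 1 kb were merged and 20 when peaks under the median width of their list were dropped, and the 12 KDM4B peaks of WT cells became 5 and 6; both follow from the construction of these settings. The KDM4B peak of KO cells at Ctnnb1 was lost at the median width, leaving 0. H3K9me3 of WT cells stayed at 0 under all its settings, of which the 10 kb extension and assignment by any overlap could have raised it. For H3 the only alternative was a stricter threshold in WT cells, which cannot raise a count of 0. Extending the windows by 10 kb gave 36 H3K9me3 peaks in KO and 17 KDM4B peaks in WT, and assigning peaks by any overlap with the window changed none of these numbers. The share of KDM4B WT peaks overlapping H3K9me3 KO peaks was 29.4 to 50% over its 4 alternatives. Counting neighbours within 1 kb gave 50% in the windows, 6 of 12, and 34.6% over all KDM4B WT peaks. Dropping peaks under the median width gave 50%, 3 of 6, against 23.3% over all peaks. When the 2 peaks had to share 50% of the narrower one, the windows kept 33.3%, against 19.1% over all peaks. Counting only stretches that hold a peak of any list raised the 45 kb background of H3K9me3 in KO and none in WT to 80.4%. This follows from the construction of the setting, as most such stretches are defined by H3K9me3 peaks of KO cells. For single windows, 30 of 40 alternative counts stayed within 1.5 times the reported one. These include every alternative for KDM4B at Axin2 and Dkk1 and for H3K9me3 at Dkk1, where 0 stayed 0, which says little of stability. The other 10 include Sost, where the extension gave 7 H3K9me3 peaks in KO and 6 KDM4B peaks in WT. That extension brought in the 1 added overlap between KDM4B and H3K9me3. The rest of the 10 came from merging or from the median width. Depth is unknown for all lists but H3 WT, so absent peaks were not detected rather than shown to be absent.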

Other observations

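The flanks of the windows also held KDM4B and H3K9me3 peaks in unequal numbers. Within 100 kb on each side, the Sost window and its flanks held 32 H3K9me3 peaks of KO cells, Ctnnb1 and Axin2 17 each, Lef1 15 and Dkk1 1. KDM4B peaks of WT cells over the same distance numbered 9 at Sost, 11 at Ctnnb1, 4 at Lef1, and 0 at Axin2 and Dkk1. Extending to 500 kb gave 12 KDM4B peaks around Axin2 and 3 around Dkk1.

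A second KDM4B peak of KO cells lay near a Wnt gene, 53.2 kb above the Axin2 window on chromosome 11 from 108873083 to 108873370, with 288 bp. It sat inside an H3K9me3 peak of WT cells from 108872825 to 108873491, which was the single H3K9me3 peak of WT cells within 500 kb of any of the 5 windows. It also touched an H3K9me3 peak of KO cells. Each of the 35 KDM4B peaks of KO cells but the Ctnnb1 peak touched H3K9me3 peaks of both genotypes. Many of these peaks sat in tight groups on chromosomes 2, 9 and 17, so they are not separate instances. The contact is therefore not particular to the surroundings of Axin2. This second KDM4B peak was looked up after the window values were seen.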
